A study of Epimedium pubescens with 12 samples.

Results

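Leaves of E. pubescens that had gone 90 d without phosphorus (90d -P, 0 mmol/L Pi) were compared with leaves of the same age given phosphorus (90d +P, 1 mmol/L Pi). Epimedium pubescens is a medicinal herb of the barberry family whose leaves store icariin-type flavonoids. The comparison used 6 of the 12 leaf libraries of the series, 3 of each group, chosen by the treatment and the day in their labels. All 53813 genes of the count table were considered, made up of 44721 genes of the reference genome and 9092 that the authors assembled from their reads. Seedlings stood in sand culture and were watered with an adjusted Hoagland solution, and the leaves were frozen before RNA was taken. The salts that replace phosphate in the -P solution also changed potassium, sodium, sulfate and nitrate, so that missing phosphate and these ions cannot be told apart. The study calls 90 d the late stage, when damage could be seen, and 30 d the early stage, when it could not. Each of the 3 replications per treatment held several seedlings, and beyond the word biological nothing says how the libraries relate to them, so that p-values measure the spread between these libraries. The letters A, B and C after a group name the replicate. Protein names are the best match that the authors' table gives for each gene.

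A plant short of phosphate is known to take up more of it, to move it out of stores and to replace it. In Arabidopsis and rice the MYB-type factor PHR switches on the starvation genes, and SPX proteins bind PHR while phosphate is plentiful. PHT1 proteins carry phosphate into cells, PHO1 proteins release it to the xylem, and the enzyme PHO2 (UBC24) marks both for breakdown. Purple acid phosphatases free phosphate from organic compounds, and sulfolipids and galactolipids take the place of phospholipids in membranes. Sugar and starch commonly build up in leaves in this state.

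The study designed RT-qPCR primers for several genes described here, and those of 3 are printed because they fix which transcript each name stands for. The RT-qPCR values were not analysed here. PHT14 is a phosphate transporter of the PHT1 family, IAA28 an auxin-response repressor and 2KGR a reductase of glyoxylate and hydroxypyruvate. They are printed 5′ to 3′ in lower case.
PHT14 (Ebr02G025260, chromosome 2) forward: ctggatgagtcaagaaggaa
PHT14 reverse: acaaggctacgatgaagag
IAA28 (Ebr02G067120, chromosome 2) forward: gcatctcactcgtcacaa
IAA28 reverse: aagaacaactgtccagcaa
2KGR (Ebr06G023990, chromosome 6) forward: ctcaggctcgtcaatgtg
2KGR reverse: tccttgtggttgcttgtg

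RNA was read to a total of 14756971 to 16471043 counts in 90d -P libraries and 15789521 to 18153463 counts in 90d +P libraries. No read fell on 18038 genes in these 6 libraries. Values are CPM, the counts divided by the library's total and scaled by the TMM method, always in the order A, B, C, and they compare libraries for 1 gene rather than genes with each other. Replicates were no more alike than libraries of different groups: Spearman's rho across genes lay between 0.87 and 0.917 within the groups and between 0.868 and 0.917 across them. On the first principal component 90d +P B stood apart at -168.5, with the other 5 libraries between 0.638 and 64.9, and on the second 90d -P C stood apart at -133.4. Both components followed single libraries and not the treatment.

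Leaf mesophyll markers were 61 genes of chlorophyll a-b binding proteins, the small subunit of rubisco and rubisco activase, most of them chlorophyll a-b binding (55). They summed to 61706, 34283 and 60659 CPM in 90d -P leaves, against 57005, 30327 and 50156 CPM in 90d +P leaves. Replicate B was the lowest of each group. The 5 genes of the root list summed to 13.8 to 15.3 CPM in 90d -P leaves and 14.7 to 16.9 CPM in 90d +P leaves, with 3 of them at 0 in every library. Leaf genes were thus abundant and root genes nearly absent in all 6 libraries, as the label says. Markers of xylem and secondary walls (33 genes) ranged from 29.5 to 253 CPM in 90d -P leaves and from 30.7 to 181 CPM in 90d +P leaves. They differed more within the groups than between them, as did 115 epidermal genes with 6330 to 13418 CPM in 90d -P leaves and 4568 to 9296 CPM in 90d +P leaves. In bulk leaves, fewer cells of a type and less RNA per cell cannot be told apart.

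After 90 d no gene passed edgeR's quasi-likelihood test with Benjamini-Hochberg adjustment. Of 24307 genes tested, 0 (0%) were called higher and 0 (0%) lower in 90d -P where a call takes an adjusted p up to 0.05 and a log2 fold change of 1 or more in size, and the smallest adjusted p was 0.0810. With an unadjusted p up to 0.05 and the same fold change, 392 genes (1.61% of those tested) were higher and 673 (2.77%) lower. These genes are called nominally higher or lower here. Some genes pass an unadjusted threshold by chance. With no true difference, a share of about 0.05 of the 24307 genes tested would have an unadjusted p of at most 0.05. In these data 1429 genes had one at any fold change, so that many nominal genes may have passed by chance. DESeq2 on the 6 libraries called 47 genes higher (0.183% of 25687) and 126 lower (0.491%), and limma-voom called 0 in both directions. Of the 173 DESeq2 calls, 169 were also nominally higher or lower in edgeR. The 3 values of 90d -P lay wholly above those of 90d +P for 1077 genes (4.43%) and wholly below for 1091 (4.49%). With no true difference, a share of about 0.05 would separate so in each direction. Neither share is above that, so that a lack of overlap alone does not mark a gene as changed.

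**Figure D1:**
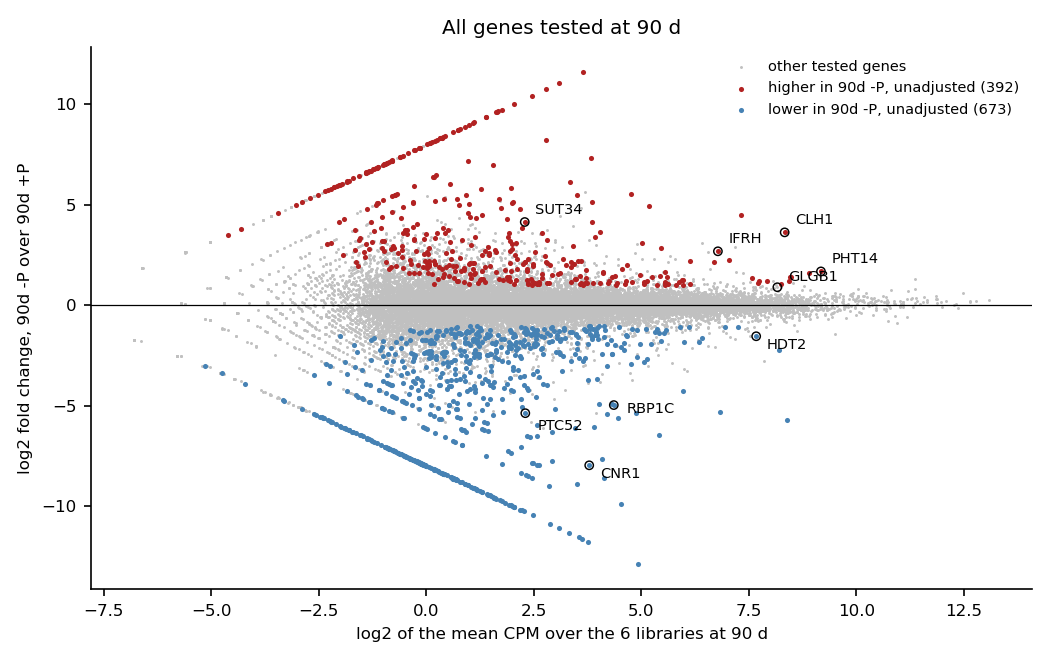
Log2 fold change of 90d -P against 90d +P (y axis) for each tested gene by its mean level in the 6 libraries (x axis, log2 CPM), with nominally higher and nominally lower genes coloured. Lower genes outnumber higher ones (673 and 392), and the straight rows of points at low levels are genes at 0 in 1 group, whose fitted fold change is no bound.

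Single libraries moved these counts. Without 90d +P C there were 654 nominally higher and 824 lower genes. Without 90d +P B they numbered 327 and 701, and 174 of the 392 and 428 of the 673 were found again. When the 6 libraries were dropped one at a time, 88 of the higher genes and 237 of the lower genes passed every time. Those are the genes described here as nominal in every such fit. The median log2 fold change over all tested genes was -0.003.

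Assembled genes were 19.2% of the genes tested but 39.0% of the nominally higher genes (153) and 43.2% of the nominally lower genes (291). They also made up 19 of the 47 higher and 69 of the 126 lower DESeq2 calls. A total of 22 genes had reads in each 90d -P library and none in any 90d +P library, and 17 of them were assembled. In the other direction, 71 genes had reads in each 90d +P library and none in 90d -P, and 50 of them were assembled. Assembled transcripts can overlap annotated genes, and how shared reads were counted is not given in the sources used here, so their single values are uncertain.

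The 30 d libraries of the series share no sample with those of 90 d. Whether the leaves of both days came from the same plants is not given in the sources used here. What the days share is thus not known to be independent. Of the 392 nominally higher genes, 311 (79.3%) also had a positive log2 fold change in 30d -P against 30d +P, as did 49.3% of all genes tested. Of the 673 nominally lower genes, 552 (82.0%) were also negative at 30 d, against 50.6% of all genes. At 30 d itself, 435 genes were nominally higher (1.79%) and 745 lower (3.06%) in 30d -P. Genes nominal in the same direction at both times numbered 66 higher and 164 lower. A test of the phosphorus by time interaction in edgeR called 0 genes after adjustment and 723 at an unadjusted p of at most 0.05.

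Phosphate genes did not move as 1 group in 90d -P leaves. Lists of transporters, PHO1 members and SPX proteins had positive medians, and that of phosphate signalling had a negative one. Of 14 tested phosphate transporters, 10 had a positive log2 fold change, with a median of 0.14 (between 0.06 and 0.25 with single libraries left out), 2 nominally higher and 0 lower. Among 12 PHO1 family members 11 were positive, with a median of 0.47 that lay between 0.15 and 1.11 as single libraries were left out. Of them 1 was nominally higher and 0 lower. The libraries overlapped: the list's median log2 deviation from each gene's mean was -0.52 in 90d -P C. It was 0.42 in 90d +P A and -0.25 in 90d +P B. The 6 SPX proteins had 4 positive genes, a median of 0.93 and 2 nominally higher members, and the median was 0.27 without 90d -P B. Of 6 genes of phosphate signalling, among them PHR-type factors and UBC24, 2 were positive and 4 negative, with a median of -0.24, 0 nominally higher and 1 lower. Over all tested genes 1.61% were nominally higher and 2.77% lower. The lists held 34 phosphate transporters, 23 PHO1 members and 13 SPX proteins in all. The members not tested had too few reads, and 11, 6 and 2 of them in that order had none in the 6 libraries.

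PHT14 (Ebr02G025260, chromosome 2, 217843112 to 217845493), the phosphate transporter with the highest CPM here, had 359, 1406 and 879 CPM in 90d -P leaves, against 303, 98.2 and 420.2 CPM in 90d +P leaves. Replicate B held the highest value of 90d -P and the lowest of 90d +P, and 90d -P A lay between the 90d +P values. Its log2 fold change was 1.69 (SE 0.54), nominally higher (unadjusted p = 0.011). It was 1.28 without 90d +P B and 1.19 without 90d -P B, where it was no longer nominal. Its neighbour PHT11 (Ebr02G025250, chromosome 2, 217838990 to 217840603), a transporter of the same family, had 0.122, 22.6 and 0.432 CPM in 90d -P leaves, against 0.0606, 0 and 0.324 CPM in 90d +P leaves. Nearly all of its reads came from 90d -P B, and without that library its log2 fold change was 1.07, against 5.82 with it.

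PHO1 homolog 3, a member of the family that exports phosphate from cells, showed the clearest separation among phosphate genes. This gene (Ebr03G045780, chromosome 3, 371424195 to 371432342) had 13.2, 11.9 and 8.76 CPM in 90d -P leaves, against 3.21, 2.74 and 1.73 CPM in 90d +P leaves. All 3 values of 90d -P lay above all 3 of 90d +P, by a log2 fold change of 2.14 (SE 0.49). The adjusted p was 0.549 in edgeR and 1.4e-04 in DESeq2, and it was nominal with any 1 library left out. At 30 d the groups overlapped, with 4.66, 5.49 and 2.17 CPM in 30d -P leaves, against 3.16, 5.47 and 9.55 CPM in 30d +P leaves. Another gene named PHO1 homolog 3 (Ebr03G045260, chromosome 3, 366678369 to 366746457) had 23.2, 25.501 and 12.8 CPM in 90d -P leaves, against 17.1, 10.9 and 4.64 CPM in 90d +P leaves, with overlap between the groups. The member with the highest CPM, Ebr03G045300, of the same name, had 182, 174 and 235 CPM in 90d -P leaves, against 198, 144 and 89.002 CPM in 90d +P leaves. In FPKM, which allows genes to be compared, Ebr03G045300 averaged 72.6 and Ebr03G045780 averaged 18.003 in 90d -P leaves.

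SPX proteins sense phosphate through inositol pyrophosphates. SPXM3 (Ebr02G027230, chromosome 2, 237439801 to 237490457), of the SPX-MFS type of vacuolar phosphate transporters, had 24.3, 42.7 and 42.98 CPM in 90d -P leaves, against 11.4, 5.48 and 14.47 CPM in 90d +P leaves. The direction in which this protein carries phosphate was not examined here. The groups did not overlap, the log2 fold change was 1.81 (SE 0.47), and it was nominal with any 1 library left out (DESeq2 adjusted p = 0.021). SPX1 (Ebr05G012830, chromosome 5, 84434853 to 84438382), which in Arabidopsis holds back PHR1, had 33.4, 259 and 52.9 CPM in 90d -P leaves, against 41.95, 9.29 and 23.6 CPM in 90d +P leaves. Here 90d -P B alone stood high and 90d +P B alone stood low, and the log2 fold change of 2.20 was 0.79 without 90d -P B. The nominal call was also lost without 90d +P B (1.798) or 90d +P C (2.17). SPX2 (Ebr06G027380, chromosome 6, 219786197 to 219789302) showed the same 2 libraries at the ends, with 61.3, 244 and 69.4 CPM in 90d -P leaves, against 95.9, 35.2 and 46.9 CPM in 90d +P leaves, and did not pass the nominal threshold.

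UBC24, the PHO2-type enzyme that in Arabidopsis removes PHT1 and PHO1 proteins and is itself repressed by a microRNA during starvation, lay lower. This gene (Ebr03G015390, chromosome 3, 123918587 to 123934051) had 27.2, 56.2 and 42.3 CPM in 90d -P leaves, against 52.9, 264 and 70.9 CPM in 90d +P leaves. It was nominally lower at -1.62 (SE 0.53), but 90d +P B carried the difference: without it the log2 fold change was -0.57 and the threshold was not passed. The adjacent gene Ebr03G015380, which has no protein name, had 3.28, 5.42 and 8.20 CPM in 90d -P leaves, against 8.06, 42.1 and 13.6 CPM in 90d +P leaves, with the same library highest and a log2 fold change of -1.91, or -0.94 without it. PHR-type factors overlapped between the groups. PHL1 (Ebr03G036950) had 28.99, 41.8 and 46.5 CPM in 90d -P leaves, against 35.1, 33.7 and 34.2 CPM in 90d +P leaves, and PHL3 (Ebr06G058970) had 37.3, 67.9 and 58.6 CPM in 90d -P leaves, against 78.5, 79.6 and 63.8 CPM in 90d +P leaves.

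**Figure D2:**
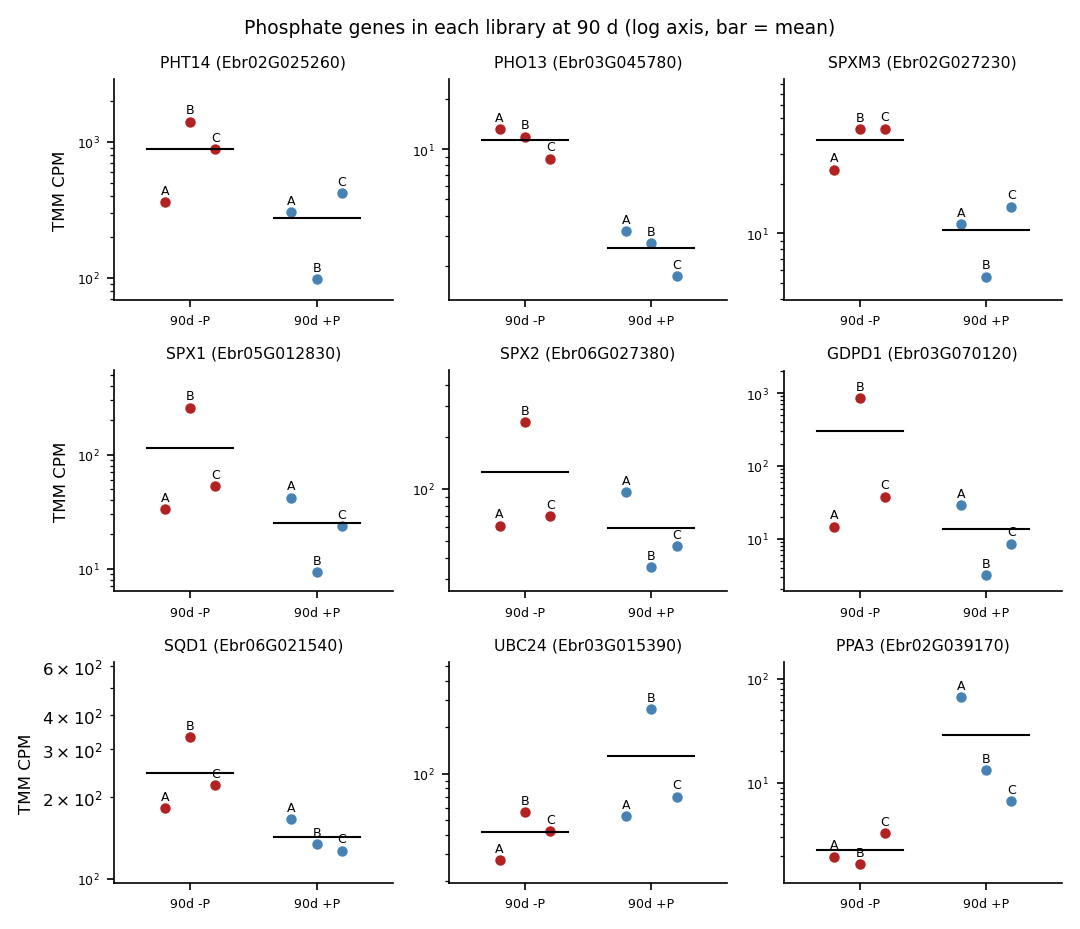
CPM (log axis) of 9 phosphate-related genes in each library, with 90d -P on the left of each panel and 90d +P on the right, letters for replicates and a bar at the mean. PHO1 homolog 3, SPXM3 and SQD1 are higher without overlap in 90d -P, and PPA3 is lower without overlap. For PHT14, SPX1, SPX2 and GDPD1 the highest point is 90d -P B and the lowest is 90d +P B.

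Among all tested genes, 15.8% had their highest value in 90d -P B, 22.3% their lowest in 90d +P B, and 3.56% both. Of the 6 SPX proteins 3 showed both, as did 2 of 14 phosphate transporters, 5 of 31 purple acid phosphatases and 8 of 34 membrane lipid genes, but 0 of 12 PHO1 members. The mesophyll markers of these 2 libraries were the lowest of their groups, and 90d -P B had the smallest total of the 6. The part of the library in these values was not tested.

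Purple acid phosphatases did not move as 1 group. Of 31 tested, 20 were positive with a median log2 fold change of 0.21. Of them 0 were nominally higher (against 1.61% of all genes) and 2 lower (6.45%, against 2.77%). Without overlap 5 were higher (16.1%, against 4.43% of all genes) and 3 lower (9.68%, against 4.49%). PPA3 (Ebr02G039170, chromosome 2, 337596039 to 337598305) had the clearest difference, with 1.94, 1.64 and 3.27 CPM in 90d -P leaves, against 66.6, 13.3 and 6.64 CPM in 90d +P leaves. Its groups did not overlap, and it was nominally lower at -3.65 (SE 0.94) and remained so with any 1 library left out (DESeq2 adjusted p = 0.004). PPA26 (Ebr04G074710, chromosome 4, 574323057 to 574415772) was nominally lower at -1.19 with overlapping groups, but not without 90d +P B (-0.87), 90d -P A (-0.999) or 90d -P C (-0.97). PPA2 (Ebr03G047280), annotated as probably inactive, had 71.8, 97.7 and 82.8 CPM in 90d -P leaves, against 51.5, 35.6 and 69.99 CPM in 90d +P leaves, without overlap but below the fold change minimum. PPA27 (Ebr03G063200), also annotated as probably inactive and of the highest mean CPM, ranged from 13.6 to 548 CPM in 90d -P leaves and from 7.82 to 514 CPM in 90d +P leaves, a spread within each group far larger than the difference between them.

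Membrane lipid remodelling genes had 22 of 34 positive and a median of 0.20, which was 0.08 without 90d -P B. Of them 1 was nominally higher (2.94%, against 1.61% of all genes) and 2 were nominally lower (5.88%, against 2.77%). Without overlap 4 were higher (11.8%, against 4.43% of all genes) and 1 was lower (2.94%, against 4.49%). SQD1, which makes the sulfolipid head group, had 181, 329.9 and 221 CPM in 90d -P leaves, against 165, 134 and 127 CPM in 90d +P leaves (Ebr06G021540, chromosome 6, 164674797 to 164682261). SQD2, which attaches it, had 75.7, 110.0 and 53.5 CPM in 90d -P leaves, against 46.4, 37.1 and 47.2 CPM in 90d +P leaves (Ebr03G035750, chromosome 3, 286891365 to 286941304). In both genes every 90d -P value lay above every 90d +P value, with log2 fold changes of 0.78 (SE 0.26) and 0.87 (SE 0.29), short of the minimum of 1. GDPD1, an enzyme that frees glycerol phosphate from lipid breakdown products, was chosen after its values were seen. It (Ebr03G070120, chromosome 3, 579326685 to 579330866) had 14.6, 857 and 37.8 CPM in 90d -P leaves, against 28.6, 3.12 and 8.53 CPM in 90d +P leaves. The 857 CPM of 90d -P B set its log2 fold change of 4.50, which was 0.98 without that library.

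Phosphate-saving bypasses of glycolysis and respiration held 17 positive genes of 22, a median of 0.17 and no nominal call. PPCK1 (Ebr02G025060), the kinase that activates phosphoenolpyruvate carboxylase, had 55.2, 190.3 and 60.8 CPM in 90d -P leaves, against 60.99, 17.7 and 52.98 CPM in 90d +P leaves, again highest in 90d -P B and lowest in 90d +P B. A gene of that carboxylase itself (CAPPC, Ebr05G042000) had 55.1, 63.3 and 41.6 CPM in 90d -P leaves, against 21.8, 17.7 and 51.95 CPM in 90d +P leaves. Nucleic acid recycling (24 genes, median -0.14) and other phosphatases (12 genes, median -0.07) had no nominal member.

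Several lower genes were near 0 in 90d -P leaves and clearly expressed in 90d +P leaves. Many single genes described here were picked for a small p or for groups without overlap, so that their separation is no test. RBP1C (Ebr01G068540, chromosome 1, 588897781 to 588907348), a Ran-binding protein of nuclear transport, had 1.70, 1.10 and 0.987 CPM in 90d -P leaves, against 32.6, 50.9 and 35.5 CPM in 90d +P leaves. Its lowest 90d +P value was many times its highest 90d -P value, and its log2 fold change was -4.97 (SE 0.63). The adjusted p was 0.125 in edgeR and 1.2e-31 in DESeq2. At 30 d it had 32.4, 10.8 and 5.87 CPM in 30d -P leaves, against 32.6, 55.2 and 51.8 CPM in 30d +P leaves, so that 30d -P A was close to the lowest 30d +P value.

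PTC52 (Ebr06G018930, chromosome 6, 144245089 to 144268545), annotated as a protochlorophyllide-dependent translocon component of chloroplasts, had 0.182, 0.0609 and 0.432 CPM in 90d -P leaves, against 13.3, 9.13 and 6.43 CPM in 90d +P leaves. The groups were far apart, with a log2 fold change of -5.37 (SE 0.74) (DESeq2 adjusted p = 1.0e-09). PS1 (Ebr05G032970, chromosome 5, 248153050 to 248154156), a protein of spindle orientation in Arabidopsis meiosis, had 0, 0.122 and 0 CPM in 90d -P leaves, against 6.73, 13.9 and 12.4 CPM in 90d +P leaves, with reads in only 1 library of 90d -P. At 30 d it had 9.47, 1.70 and 0.0638 CPM in 30d -P leaves, against 7.51, 7.27 and 8.95 CPM in 30d +P leaves, so that 30d -P A lay above every 30d +P library and 30d -P C was near 0. NIFU4 (Ebr06G012170, chromosome 6, 85905407 to 85983752), which carries iron-sulfur clusters in mitochondria, had 0, 0.243 and 0.123 CPM in 90d -P leaves, against 8.003, 8.003 and 1.03 CPM in 90d +P leaves. The groups did not overlap, and 90d +P C was the lowest of its group. Y3264 (Ebr02G062040, chromosome 2, 520112966 to 520115923), a protein of unknown function, had 0, 0.122 and 0 CPM in 90d -P leaves, against 1.21, 3.28 and 19.01 CPM in 90d +P leaves.

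A run of 4 neighbouring genes on chromosome 2, from 348806141 to 348863810, was low as a whole in 90d -P leaves. They carry the PLAC8 domain of cell number regulators, named in maize, and of cadmium resistance proteins, named in Arabidopsis. CNR10 (Ebr02G040490) had 0, 0.0609 and 1.23 CPM in 90d -P leaves, against 17.46, 53.7 and 17.498 CPM in 90d +P leaves. The next gene, also CNR10 (Ebr02G040500, chosen after its values were seen), had 0.0608, 2.92 and 15.48 CPM in 90d -P leaves, against 77.4, 162 and 118 CPM in 90d +P leaves. PCR3 (Ebr02G040510) had 0, 1.16 and 1.73 CPM in 90d -P leaves, against 26.1, 155 and 71.9 CPM in 90d +P leaves. In each of them every 90d -P value lay below every 90d +P value, with 90d -P C the highest of its group and 90d +P B the highest of the other. CNR1 (Ebr02G040520) had 0, 0 and 0.308 CPM in 90d -P leaves, against 17.3, 46.5 and 18.6 CPM in 90d +P leaves, with the same pattern. Their log2 fold changes were -6.08, -4.27, -6.45 and -7.96 along the chromosome, and the second was not nominal without 90d -P A (-3.69), 90d -P B (-3.92), 90d +P B (-3.97) or 90d +P C (-4.27).

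The same 4 genes were lower at 30 d as well, in other libraries that may come from the same plants. PCR3 had 0.144, 0 and 11.7 CPM in 30d -P leaves, against 52.8, 66.4 and 45.8 CPM in 30d +P leaves, and CNR1 had 0, 0 and 5.04 CPM in 30d -P leaves, against 31.6, 12.97 and 12.49 CPM in 30d +P leaves. In all 4 genes every 30d -P value lay below every 30d +P value, and 30d -P C was the highest of its group. Reads that fit several copies of such a family may have been split or dropped, so that single members are less certain than the run as a whole.

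**Figure D3:**
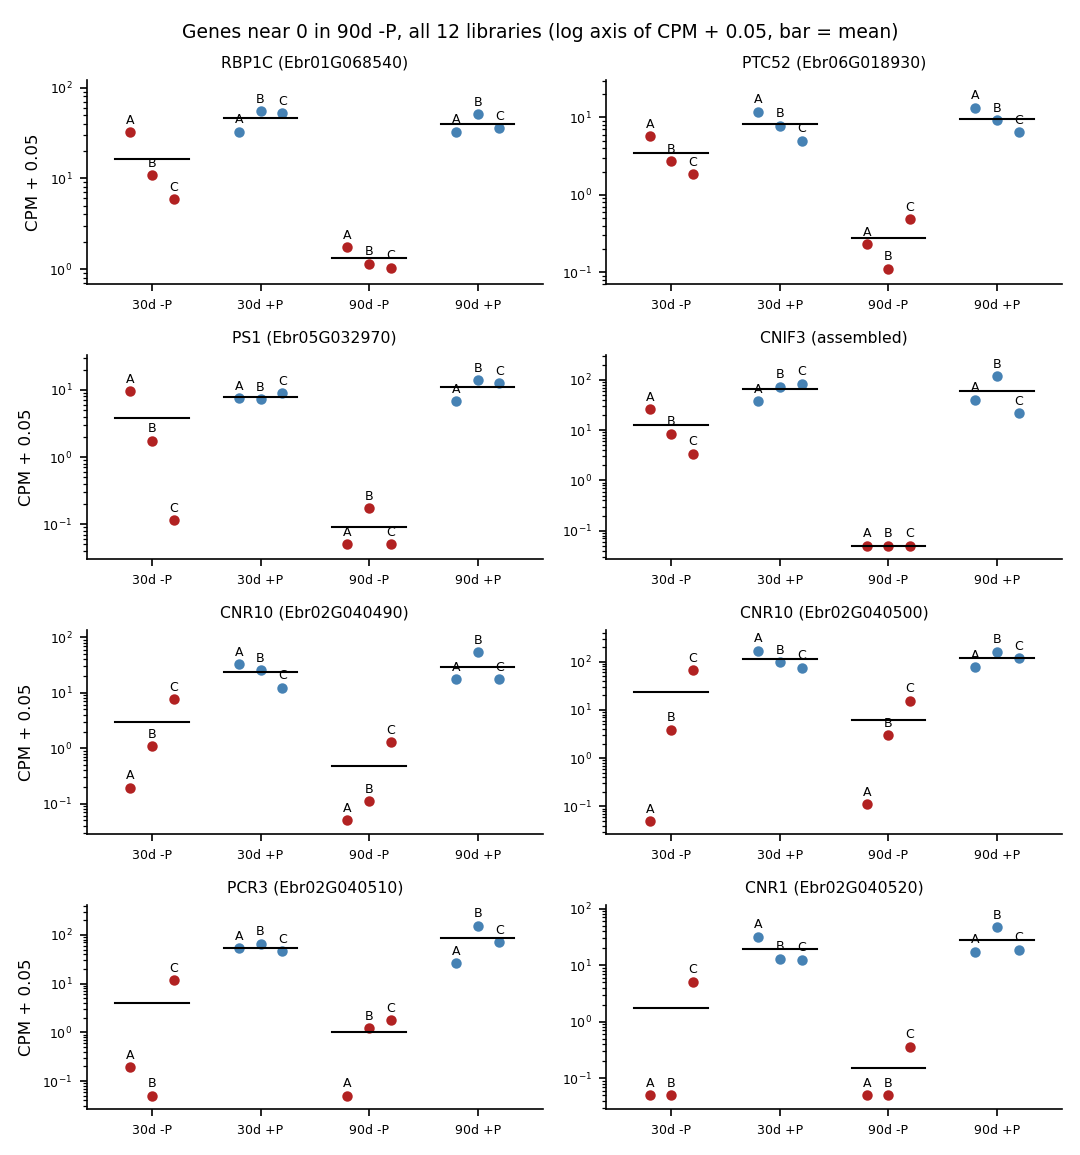
Levels of 8 genes near 0 in 90d -P leaves, in all 12 libraries (x axis: the 30 d groups, then the 90 d groups, -P left of +P, each A, B, C; y axis: CPM + 0.05, log axis). RBP1C and PS1 are low in all 3 libraries of 90d -P but not in 30d -P A, and each of the 4 genes of the chromosome 2 run is lower in every -P library than in every +P library of the same day.

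Further lower genes belong to cell walls and phenolic metabolism. CCR1, which opens the branch to monolignols (Ebr04G064870, chromosome 4, 504201182 to 504202949), had 0.0608, 0.304 and 0.678 CPM in 90d -P leaves, against 5.76, 7.84 and 13.02 CPM in 90d +P leaves. The groups were apart by -4.64 (SE 1.00) on the log2 scale, nominal with any 1 library left out (DESeq2 adjusted p = 6.7e-06). Laccase-5 (Ebr04G031150, chromosome 4, 248401211 to 248403069), of the enzymes that join monolignols into lignin, had 0, 0 and 0 CPM in 90d -P leaves, against 35.1, 38.7 and 0 CPM in 90d +P leaves. It was on in 2 libraries of 90d +P and off in the other, so that the groups overlapped at 0. The whole list of monolignol and lignin enzymes, 135 tested, had a median of 0.00. Of them 4 were nominally higher (2.96%, against 1.61% of all genes) and 6 lower (4.44%, against 2.77%). C70B1 (Ebr01G002790, chromosome 1, 21644825 to 21647977), in Arabidopsis a fatty acid hydroxylase of the pollen wall, had 0, 0.0609 and 0.247 CPM in 90d -P leaves, against 15.04, 0.376 and 14.53 CPM in 90d +P leaves.

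HDT2 (Ebr01G055910, chromosome 1, 483009709 to 483014901), a plant-type histone deacetylase, was lower at a high level. It had 108, 108.5 and 95.5 CPM in 90d -P leaves, against 276, 458 and 173 CPM in 90d +P leaves. The 90d -P replicates lay close together and below all of 90d +P, at a log2 fold change of -1.54 (SE 0.28), or -1.12 without 90d +P B (DESeq2 adjusted p = 0.022). HSP83 (Ebr01G019680, chromosome 1, 174927794 to 174930518), an HSP90-type chaperone, had 0.182, 0.183 and 0.0617 CPM in 90d -P leaves, against 1.52, 1.40 and 4.10 CPM in 90d +P leaves, a clear but low-level difference. Among 143 chaperones tested, 1 was nominally higher (0.699%, against 1.61% of all genes) and 4 lower (2.80%, against 2.77%).

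Among the higher genes were enzymes of several pathways. IFRH (Ebr05G056080, chromosome 5, 411676054 to 411678697), an isoflavone reductase homolog, had 271, 130.4 and 169 CPM in 90d -P leaves, against 20.7, 18.1 and 49.6 CPM in 90d +P leaves. Every 90d -P value was over 2 times the highest 90d +P value, and the log2 fold change was 2.69 (SE 0.68) (DESeq2 adjusted p = 6.7e-05). PPO (Ebr03G017780, chromosome 3, 142683852 to 142685621), a polyphenol oxidase, had 23.1, 4.63 and 132 CPM in 90d -P leaves, against 0.849, 0.269 and 2.27 CPM in 90d +P leaves. The groups did not overlap, yet 90d -P ran over a wide range, and without 90d -P C the log2 fold change of 5.54 was 3.61 and not nominal. The call was also lost without 90d +P A (5.38) or 90d +P B (5.09). AIM32 (Ebr03G054190, chromosome 3, 443679260 to 443696344), named after a yeast mitochondrial protein, had 45.6, 4.56 and 40.6 CPM in 90d -P leaves, against 1.21, 4.24 and 1.67 CPM in 90d +P leaves, where 90d -P B was close to the 90d +P leaves and the other 2 were far above.

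LOR12, a LURP-one-related protein (Ebr03G024510, chromosome 3, 190289357 to 190290107), had 6.02, 11.9 and 32.7 CPM in 90d -P leaves, against 5.64, 2.47 and 3.35 CPM in 90d +P leaves. RG1, a glucosidase (Ebr01G009030, chromosome 1, 79974426 to 79977500), had 2.25, 6.15 and 12.8 CPM in 90d -P leaves, against 1.39, 0.483 and 0.648 CPM in 90d +P leaves. For both 90d -P C was the highest, and without it their log2 fold changes of 2.14 and 3.06 were 1.23 and 2.31 and not nominal.

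Sulfate transport was also represented. SUT34 (Ebr02G059920, chromosome 2, 503713682 to 503717375), a transporter of the sulfate family, had 3.04, 19.3 and 5.37 CPM in 90d -P leaves, against 0.849, 0.269 and 0.432 CPM in 90d +P leaves. All 3 values of 90d -P lay above 90d +P, with a log2 fold change of 4.15 (SE 1.03) that was nominal with any 1 library left out (DESeq2 adjusted p = 8.2e-04). A second SUT34 gene (Ebr02G060030, chromosome 2, 504770311 to 504774064) had 1.28, 9.92 and 0.987 CPM in 90d -P leaves, against 1.46, 0.376 and 0.054 CPM in 90d +P leaves, with overlap. Of 8 tested sulfate transporters 6 were positive, the median was 0.42, and 1 was nominally higher. The 2 solutions differed in sulfate, as described, and this was not tested apart from phosphate.

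Starch synthesis genes were mostly higher in 90d -P leaves. Of 23 tested, 19 had a positive log2 fold change, 4 were nominally higher, 0 lower, and 6 were higher without overlap (26.1% against 4.43% of all genes). The median was 0.37, and it lay between 0.31 and 0.56 with single libraries left out. The list also takes in isoamylases, so that the debranching enzyme ISOA3, described below, is among its nominally higher genes. The list was written with results of these data known, so that its share describes these genes and is no test.

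GLGL1 (Ebr04G029750, chromosome 4, 234758286 to 234769999), the large subunit of ADP-glucose pyrophosphorylase that opens starch synthesis, had 308, 262 and 75.6 CPM in 90d -P leaves, against 67.8, 38.4 and 31.1 CPM in 90d +P leaves. Even the lowest 90d -P value, in C, was above the highest of 90d +P, and the log2 fold change was 2.23 (SE 0.52) (DESeq2 adjusted p = 0.017). GLGB1 (Ebr01G064020, chromosome 1, 553156963 to 553272318), a starch branching enzyme, had 317, 395 and 404 CPM in 90d -P leaves, against 213, 166 and 219.9 CPM in 90d +P leaves. It differed by only 0.90 (SE 0.17), below the minimum of 1, but with tight replicates (unadjusted p = 3.6e-04). GLGB2 (Ebr06G024120, chromosome 6, 189687434 to 189827266), a second branching enzyme, had 232, 348 and 277 CPM in 90d -P leaves, against 174, 116 and 112 CPM in 90d +P leaves and a log2 fold change of 1.09 (SE 0.23), and it was under the minimum of 1 without 90d -P B (0.92), 90d +P B (0.99) or 90d +P C (0.98).

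Granule-bound starch synthase, which makes amylose, was split between 2 neighbouring copies. SSG1 Ebr04G020730 (153217889 to 153222360 on chromosome 4) had 292, 700.0 and 557 CPM in 90d -P leaves, against 227, 224 and 140.1 CPM in 90d +P leaves, a log2 fold change of 1.39 (SE 0.44) without overlap. The more abundant copy, Ebr04G020710, had 1802, 1090.5 and 2357 CPM in 90d -P leaves, against 1924, 1149.8 and 1749 CPM in 90d +P leaves, and its groups overlapped fully. Mean FPKM in 90d -P leaves was 937 for Ebr04G020710 and 221 for Ebr04G020730. How reads shared by such copies were assigned is not given in the sources used here.

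**Figure D4:**
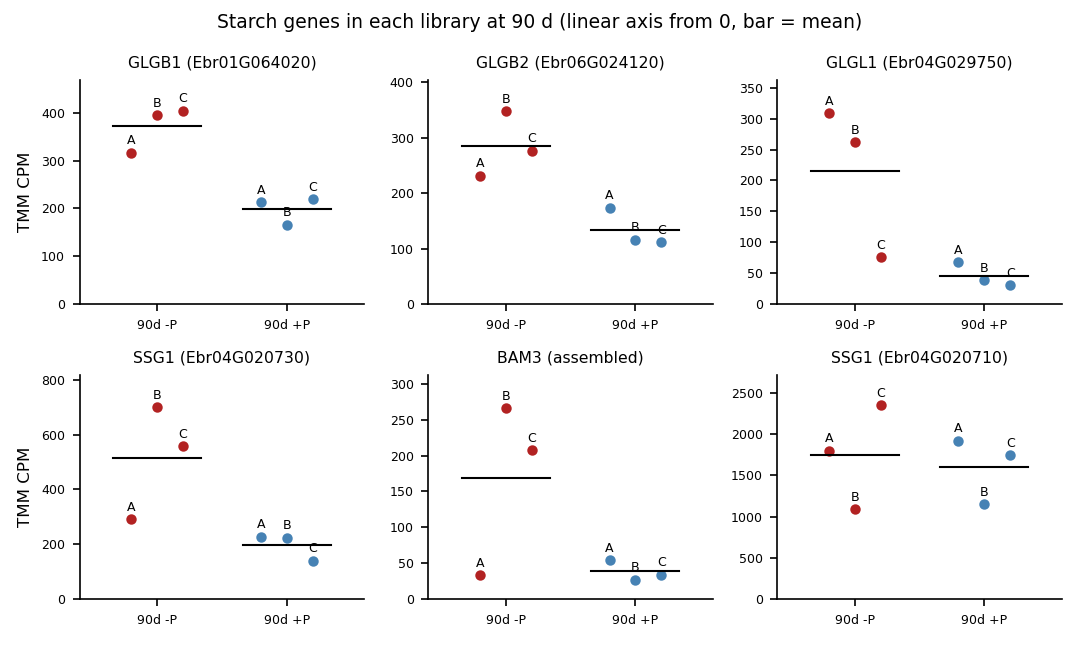
CPM (linear axis from 0) of 6 starch genes in each library, 90d -P on the left and 90d +P on the right, with letters for replicates and a bar at the mean. The branching enzymes, GLGL1 and SSG1 Ebr04G020730 lie above 90d +P in all 3 replicates of 90d -P, BAM3 in B and C, and SSG1 Ebr04G020710 does not separate the groups.

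Starch breakdown had 20 of 30 genes positive, a median of 0.15 and 1 nominally higher member. That was an assembled BAM3 gene (chromosome 4, 65267603 to 65270602), a beta-amylase that releases maltose from leaf starch in Arabidopsis, with 32.9, 266 and 208 CPM in 90d -P leaves, against 54.02, 27.1 and 34.02 CPM in 90d +P leaves. Replicate A of 90d -P was at the level of 90d +P while B and C were well above it, and the log2 fold change of 2.14 (SE 0.58) was nominal with any 1 library left out. ISOA3 (Ebr02G004920, chromosome 2, 34926127 to 34943544), a debranching enzyme that was counted in the starch synthesis list and not here, had 4.38, 2.98 and 1.67 CPM in 90d -P leaves, against 0.849, 1.67 and 0.54 CPM in 90d +P leaves. It was nominally higher, but not without 90d -P A (1.19), 90d +P A (1.45) or 90d +P C (1.26). Sucrose metabolism (21 genes, median 0.07) had 1 nominally lower gene, SPSA2 (Ebr02G032840, chromosome 2, 287489386 to 287527715), a sucrose-phosphate synthase at low level with 1.28, 1.10 and 0.802 CPM in 90d -P leaves, against 3.03, 2.69 and 4.32 CPM in 90d +P leaves. The abundant sucrose-phosphate synthase SPSA4 (Ebr04G055270) had 273, 559 and 607 CPM in 90d -P leaves, against 347, 323 and 334 CPM in 90d +P leaves. None of 50 sugar transporters was nominal.

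Photosynthesis genes mostly had small positive fold changes, whose size depended on both B libraries. Of 46 light-harvesting genes 39 were positive with a median of 0.35, of 58 photosystem genes 46 with 0.20, of 15 Calvin cycle genes 10 with 0.15 and of 26 chlorophyll synthesis genes 20 with 0.18. Without 90d +P B the medians were 0.06, -0.02, -0.03 and 0.01 in the same order, and without 90d -P B they were 0.73, 0.29, 0.23 and 0.28. The library 90d +P B was the lowest of all 6 for 27 of the 46 light-harvesting genes and 34 of the 58 photosystem genes.

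Nominal calls were few in these classes. CB24 (Ebr03G052420, chromosome 3, 426343286 to 426344446), a chlorophyll a-b binding protein, had 96.3, 93.97 and 116 CPM in 90d -P leaves, against 1016, 182 and 255 CPM in 90d +P leaves, with 90d +P A far above the rest. Without that library its log2 fold change of -2.25 was -1.09 and not nominal. A rubisco activase gene (RCA1, Ebr01G048300), which keeps the carbon-fixing enzyme active, had 225, 167 and 132 CPM in 90d -P leaves, against 262, 294 and 454 CPM in 90d +P leaves without overlap. The RCA1 gene Ebr06G000760 of higher CPM overlapped, with 9395, 7598 and 11300.3 CPM in 90d -P leaves, against 9384, 6727 and 7812 CPM in 90d +P leaves. CLH1 (Ebr02G013030, chromosome 2, 100897883 to 100899013), a chlorophyllase, was the single nominally higher gene of 11 for chlorophyll breakdown. It had 57.9, 764 and 964 CPM in 90d -P leaves, against 36.1, 34.9 and 73.3 CPM in 90d +P leaves: B and C of 90d -P stood more than 10 times above 90d +P, and A within its range. DESeq2 called it (adjusted p = 0.0035), and in edgeR the nominal call was lost with any 1 library left out but 90d -P A, at 3.10 without 90d -P C. PAO (Ebr06G009210), which opens the chlorophyll ring during senescence, had 42.1, 42.9 and 41.6 CPM in 90d -P leaves, against 63.5, 49.3 and 42.7 CPM in 90d +P leaves.

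Pectin enzymes (57 tested, median 0.08) had 2 nominally higher members and 1 lower. Without overlap 2 were higher (3.51%, against 4.43% of all genes) and 4 lower (7.02%, against 4.49%). The 2 higher ones, 3.51% of the list against 1.61% of all genes, were polygalacturonases, which cut pectin. PGLR Ebr04G016250 (114973324 to 114979510 on chromosome 4) had 6.87, 10.8 and 9.07 CPM in 90d -P leaves, against 2.49, 1.61 and 2.81 CPM in 90d +P leaves. Its log2 fold change was 1.95 (SE 0.31) with an unadjusted p of 7.3e-05 (DESeq2 adjusted p = 0.0015). PGLR Ebr04G016160, at 114326402 to 114332252 nearby, had 4.68, 4.504 and 3.02 CPM in 90d -P leaves, against 1.03, 0.752 and 1.46 CPM in 90d +P leaves. Both separated the groups and were nominal with any 1 library left out.

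Cellulose synthases and their relatives had 30 positive and 28 negative genes of 58, a median of 0.06, 1 nominally higher and 6 lower. Those 6 are 10.3% of the list, against 2.77% of all genes, and without 90d +P B 3 were nominally lower. Several lower ones were of the CSL branch of cellulose synthase-like proteins. CSLG2 (Ebr05G047910, chromosome 5, 360838259 to 360853181) had 0, 0 and 0 CPM in 90d -P leaves, against 7.09, 0.107 and 16.2 CPM in 90d +P leaves, at least 42.6-fold lower, or 19.6-fold without 90d +P C. An assembled CSLD2 gene (chromosome 2, 229417125 to 229423658) had 0, 0 and 0 CPM in 90d -P leaves, against 1.15, 16.7 and 2.43 CPM in 90d +P leaves, at least 36.9-fold lower, or 9.77-fold without 90d +P B, the highest of its group. CSLG3 (Ebr04G072550) had 0, 0 and 0 CPM in 90d -P leaves, against 0.364, 68.7 and 0.594 CPM in 90d +P leaves, where 90d +P B stood far above the other 2 and the call was lost without it. Such bounds take a floor of 3 counts per library for the group at 0 and cover counting error only. The 0.107 CPM of CSLG2 in 90d +P B lay below such a floor (0.168 CPM on average in 90d +P), so that its bound rests on 90d +P A and C. The abundant catalytic subunit CESA3 (Ebr06G014390) had 778, 355 and 354 CPM in 90d -P leaves, against 372, 289 and 731 CPM in 90d +P leaves. Expansins and XTH enzymes (42 tested) had a median of -0.19, which was 0.51 without 90d +P B. Of them 4 were nominally lower (9.52%, against 2.77% of all genes), but only 1 without 90d +P B. Among the 4 was EXP13 (Ebr03G038630, chromosome 3, 310991799 to 311000586) with 0.547, 0.365 and 0.432 CPM in 90d -P leaves, against 1.03, 2.74 and 2.97 CPM in 90d +P leaves.

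Flavonoid genes, from which icariin is built, mostly overlapped between the groups. Lower without overlap were 1 core gene (2.63%) and 1 decoration gene (3.85%), against 4.49% of all genes, and 0 were higher, against 4.43%. Early phenylpropanoid enzymes (10 genes) had a median of -0.45 and 38 flavonoid core enzymes one of -0.18. Leaving out single libraries moved these medians between -1.01 and 1.26 and between -0.50 and 0.84, the highest without 90d +P C. TCMO (Ebr01G074580), the cinnamate hydroxylase of the pathway, had 659, 153 and 298 CPM in 90d -P leaves, against 266, 61.4 and 1479 CPM in 90d +P leaves, so that 90d +P held both the lowest and the highest value. Chalcone synthase CHS2 (Ebr01G026640) had 3029, 1343 and 1432 CPM in 90d -P leaves, against 1852, 900.2 and 2822 CPM in 90d +P leaves, and the prenyltransferase N8DT1 (Ebr02G069700) had 572, 192 and 743 CPM in 90d -P leaves, against 355, 78.2 and 772 CPM in 90d +P leaves. The single nominal call in the core list was CFI (Ebr06G004170, chromosome 6, 27010363 to 27011637), a chalcone isomerase gene at low level with 0.243, 0.669 and 0.308 CPM in 90d -P leaves, against 0.485, 1.77 and 4.21 CPM in 90d +P leaves. Its log2 fold change was -2.38, and the call was lost without 90d -P A (-2.12), 90d -P C (-2.22) or 90d +P C (-1.45). None of 26 flavonoid decoration genes was nominal.

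Assembled copies of sterol and secretory genes were lower, while the abundant genes of both lists were not. Of 19 sterol synthesis genes (median 0.01), 2 were nominally lower (10.5%, against 2.77% of all genes), both named CP511, the sterol 14-demethylase. The copy on chromosome 5, 429896318 to 429910516, had 0, 0 and 0 CPM in 90d -P leaves, against 4.91, 6.499 and 6.48 CPM in 90d +P leaves, at least 32.5-fold lower. The copy on chromosome 5, 93540116 to 93565512, had 0, 0 and 0 CPM in 90d -P leaves, against 1.52, 2.90 and 1.13 CPM in 90d +P leaves, at least 10.1-fold lower. The reference copy Ebr05G002420 overlapped, with 4.44, 3.23 and 2.78 CPM in 90d -P leaves, against 3.58, 3.38 and 13.4 CPM in 90d +P leaves. Among 40 secretory coat genes (median 0.06), 3 were nominally lower (7.5%), among them SC24A (chromosome 5, 43092376 to 43096793), a cargo receptor of COPII vesicles, with 0, 0 and 0 CPM in 90d -P leaves, against 0.788, 3.44 and 1.03 CPM in 90d +P leaves. The coat gene COB22 (Ebr02G066610), of the highest CPM, had 235, 184 and 166 CPM in 90d -P leaves, against 145, 170.3 and 187 CPM in 90d +P leaves.

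Aux/IAA proteins, which repress auxin responses, were nearly all on the lower side: 15 of 16 were negative, with a median of -0.60 that stayed between -0.90 and -0.30. A total of 4 were lower without overlap, against 4.49% of all genes, and 2 were nominally lower, against 2.77% of all genes. IAA28 (Ebr02G067120, chromosome 2, 555915468 to 555916543), whose primers are given above, had 42.8, 19.48 and 22.8 CPM in 90d -P leaves, against 33.8, 81.1 and 84.8 CPM in 90d +P leaves. The value of 90d -P A lay between the 90d +P values, and the log2 fold change was -1.23 (SE 0.43). AX22D (Ebr01G018800, chromosome 1, 166711991 to 166713399) had 17.6, 29.2 and 27.8 CPM in 90d -P leaves, against 36.6, 85.8 and 48.8 CPM in 90d +P leaves, without overlap, at -1.20, or -0.79 without 90d +P B. The call of IAA28 was lost without 90d -P B (-1.04), 90d -P C (-1.09) or 90d +P C (-1.01), and that of AX22D with any 1 library left out but 90d +P A.

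Other hormone lists had few nominal members. SAUR genes (23 tested) had a median of -0.60, which was -0.05 without 90d +P B. SAU50 (Ebr0G010070, unplaced Contig03193, 41782 to 42096) was the nominally lower one with 0.0608, 0.243 and 0 CPM in 90d -P leaves, against 1.21, 2.09 and 1.19 CPM in 90d +P leaves, at -3.78 on the log2 scale, and was not nominal without 90d -P A (-3.53), 90d -P C (-3.23) or 90d +P B (-3.47). Jasmonate, gibberellin, abscisic acid, ethylene and cytokinin lists had medians of -0.13, -0.08, 0.03, -0.07 and -0.02, with at most 2 nominal members in a direction. MYC2 (Ebr04G053120, chromosome 4, 418190892 to 418191519), the main jasmonate factor, had 0, 0.122 and 0 CPM in 90d -P leaves, against 1.03, 0.0537 and 1.57 CPM in 90d +P leaves, too few reads in either group for a firm value.

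Of 1349 tested transcription factors 7 were nominally higher and 27 lower, both smaller shares than the 1.61% and 2.77% of all genes. The bHLH family (84 tested) had 29 positive and 55 negative genes, a median of -0.14, 1 nominally higher and 5 lower. The bHLH35 gene Ebr04G047800 had 0, 0 and 0.185 CPM in 90d -P leaves, against 2.73, 5.85 and 1.57 CPM in 90d +P leaves, and the bHLH35 gene Ebr05G003660 had 0.851, 1.28 and 0.308 CPM in 90d -P leaves, against 5.52, 2.63 and 1.57 CPM in 90d +P leaves. Both separated the groups and were nominal with any 1 library left out. In the MYB family (120 tested, 0 nominally higher and 5 lower), MYB5 (Ebr01G039680, chromosome 1, 350837302 to 350838278), a repressor, had 1.40, 1.34 and 1.73 CPM in 90d -P leaves, against 3.33, 8.33 and 6.64 CPM in 90d +P leaves and a log2 fold change of -2.03 (SE 0.54). Homeobox genes were negative in 35 of 46, with a median of -0.12 and no nominal member. HAT22 (Ebr04G065960) came nearest, with 10.6, 13.7 and 15.1 CPM in 90d -P leaves, against 21.6, 29.2 and 27.6 CPM in 90d +P leaves. The AP2/ERF factor EF100 (Ebr04G011510, chromosome 4, 83639381 to 83640544) was among the few higher ones, with 24.01, 47.3 and 67.2 CPM in 90d -P leaves, against 17.4, 12.03 and 19.2 CPM in 90d +P leaves and a log2 fold change of 1.51 (SE 0.41) without any overlap. NAC68 (Ebr06G022380, chromosome 6, 172960794 to 172963295) had 17.2, 52.95 and 75.9 CPM in 90d -P leaves, against 16.4, 17.46 and 28.46 CPM in 90d +P leaves, where 90d -P A was at the 90d +P level. Its nominal call was lost without 90d -P B (1.18), 90d -P C (0.76), 90d +P A (1.09) or 90d +P B (1.12). None of 34 WRKY factors was nominal.

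Receptor-like kinases (542 tested) had 17 nominally higher members (3.14%, against 1.61% of all genes) and 8 lower (1.48%, against 2.77%). Without overlap 41 were higher (7.56%, against 4.43% of all genes) and 17 lower (3.14%, against 4.49%). Resistance proteins of the NBS-LRR type (283 tested) had 8 nominally higher (2.83%, against 1.61% of all genes) and 12 lower (4.24%, against 2.77%). RGA2 (Ebr02G015400, chromosome 2, 121831547 to 121834273) had 5.77, 1.22 and 3.15 CPM in 90d -P leaves, against 29.1, 7.73 and 18.3 CPM in 90d +P leaves, lower without overlap at -2.44 (SE 0.64). DRL27 (Ebr02G015110, chromosome 2, 119919983 to 119923207) had 15.498, 12.2 and 15.3 CPM in 90d -P leaves, against 34.1, 29.54 and 26.2 CPM in 90d +P leaves, lower without overlap (DESeq2 adjusted p = 0.0063) at a log2 fold change of -1.06. The nominal call of DRL27 was lost without 90d -P B (-0.97) or 90d +P A (-0.96). Chitinases and pathogenesis-related proteins (79 tested) had 5 nominally higher and 1 lower, against 1.61% and 2.77% of all genes, but 4 higher and 6 lower without overlap, with a median of 0.18. Y3475 (Ebr03G012750, chromosome 3, 101105526 to 101108998), a leucine-rich repeat kinase, had 3.34, 7.61 and 11.7 CPM in 90d -P leaves, against 1.03, 0.483 and 1.08 CPM in 90d +P leaves, and at 30 d its log2 fold change was negative, at -2.73. Its nominal call at 90 d was lost without 90d -P C (2.66), 90d +P A (3.26), 90d +P B (2.83) or 90d +P C (3.31).

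Among detoxification genes, GSTUH (Ebr03G061090, chromosome 3, 499314583 to 499315484), a glutathione S-transferase, had 278, 476 and 767 CPM in 90d -P leaves, against 255, 146 and 179.6 CPM in 90d +P leaves. It was nominally higher at 1.39 (SE 0.46) and not without 90d -P C, at 0.96. MGST3 (Ebr04G040670), a microsomal transferase, had 113, 105 and 104 CPM in 90d -P leaves, against 61.6, 63.5 and 79.4 CPM in 90d +P leaves, a small difference with tight replicates in 90d -P. Of 134 cytochromes P450, 6 were nominally higher (4.48%, against 1.61% of all genes) and 7 lower (5.22%, against 2.77%). Of 58 class III peroxidases, 1 was nominally higher (1.72%) and 3 lower (5.17%). The abundant PER42 (Ebr03G026260) ranged from 933 to 10068 CPM in 90d -P leaves and from 545 to 6345 CPM in 90d +P leaves.

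Ion transport beside phosphate and sulfate gave single genes. KCO1 (Ebr06G057470, chromosome 6, 443126174 to 443167215), a vacuolar potassium channel, had 13.4, 15.6 and 21.6 CPM in 90d -P leaves, against 25.04, 43.3 and 46.1 CPM in 90d +P leaves, lower without overlap and nominal with any 1 library left out at -1.18 (SE 0.33). PTR21 (Ebr03G061500, chromosome 3, 502619901 to 502624327), a member of the nitrate and peptide transporter family, had 469, 199 and 345 CPM in 90d -P leaves, against 189.5, 73.5 and 179 CPM in 90d +P leaves and was nominally higher at 1.19 (SE 0.43), but not without 90d -P A (0.89) or 90d +P B (0.86). The 33 potassium and 89 nitrate and ammonium genes had medians of 0.13 and 0.05. Among 24 aquaporins TIP2 (Ebr05G056740, chromosome 5, 416947911 to 416949410), of the vacuolar membrane, had 0.0608, 0.0609 and 0 CPM in 90d -P leaves, against 5.70, 1.24 and 4.37 CPM in 90d +P leaves.

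Housekeeping lists had medians between -0.05 and 0.13. Cytosolic ribosomal proteins (293 tested) had a median of -0.05, pentatricopeptide proteins (526) one of 0.04, cell cycle and DNA replication genes (238) one of -0.02 and RNA polymerases (60) one of -0.03. Organelle ribosomal proteins (134) had a median of 0.10. Commonly used reference genes (63 tested) had a median of 0.13, 0 nominally higher and 2 lower members. The elongation factor EF1A (Ebr02G024330) had 1675, 1786 and 1998 CPM in 90d -P leaves, against 1794, 1445 and 1582 CPM in 90d +P leaves. BUB1 (Ebr0G011620, unplaced Contig03590, 3838 to 72104), of the mitotic checkpoint, and the histone H2B6 (Ebr01G065660, chromosome 1, 565743284 to 565743736) were nominally lower with any 1 library left out. BUB1 had 0.547, 0.122 and 0.185 CPM in 90d -P leaves, against 4.55, 0.43 and 5.13 CPM in 90d +P leaves, and H2B6 had 1.15, 1.64 and 1.42 CPM in 90d -P leaves, against 5.76, 3.06 and 9.83 CPM in 90d +P leaves.

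**Figure D5:**
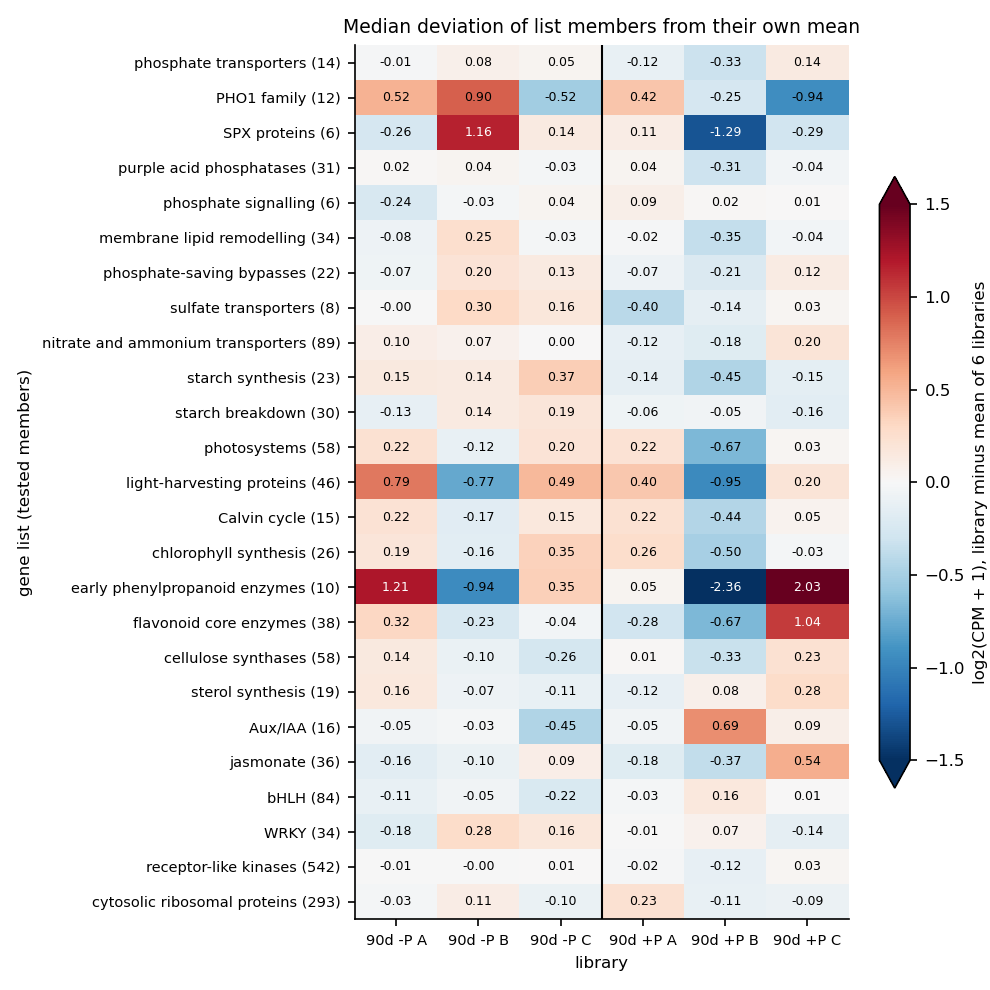
Median deviation of log2(CPM + 1) from each gene's mean over the 6 libraries (colour) for 25 gene lists (rows) in the 90d -P and then the 90d +P libraries (columns). Light-harvesting and photosystem genes are low in 90d +P B, and starch synthesis genes are above their mean in all 3 libraries of 90d -P and below it in all 3 of 90d +P.

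Assembled genes, outside the reference annotation, gave some of the smallest p-values. The smallest adjusted p in edgeR, 0.0810, belonged to a gene without protein name on chromosome 4, 493114572 to 493153172, with 0, 0.183 and 0.0617 CPM in 90d -P leaves, against 46.9, 39.3 and 17.9 CPM in 90d +P leaves. Its reads were nearly absent from 90d -P and present in every 90d +P library (DESeq2 adjusted p = 6.1e-18). An assembled gene named as a cysteine desulfhydrase, CNIF3 (chromosome 3, 381294036 to 381303404), had 0, 0 and 0 CPM in 90d -P leaves, against 40.4, 118 and 21.55 CPM in 90d +P leaves, at least 328-fold lower, or 169-fold without 90d +P B. At 30 d it was present in both groups, with 26.1, 8.43 and 3.38 CPM in 30d -P leaves, against 37.2, 73.3 and 84.5 CPM in 30d +P leaves. An unnamed gene on chromosome 5, 352319124 to 352340403, had 0.304, 0 and 0.185 CPM in 90d -P leaves, against 18.2, 65.1 and 17.98 CPM in 90d +P leaves. All 3 of these were nominal with any 1 library left out.

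In the other direction, an unnamed gene on chromosome 3, 433565905 to 433566963, had 7.60, 18.8 and 14.9 CPM in 90d -P leaves, against 0, 0 and 0 CPM in 90d +P leaves, at least 81.8-fold higher. Another on chromosome 4, 68181539 to 68182666, had 1.64, 7.61 and 6.41 CPM in 90d -P leaves, against 0, 0 and 0 CPM in 90d +P leaves, at least 31.01-fold higher. A further unnamed gene, on chromosome 5, 234006219 to 234015349, was expressed in both groups, with 16.47, 23.1 and 21.1 CPM in 90d -P leaves, against 6.37, 5.91 and 5.72 CPM in 90d +P leaves and a log2 fold change of 1.75 (SE 0.36) (DESeq2 adjusted p = 1.2e-06). Neighbouring assembled genes on chromosome 3 were highest in the same library. The kinase PXC1 (chromosome 3, 354927160 to 354929304) had 1.40, 3.90 and 13.3 CPM in 90d -P leaves, against 0, 0 and 0 CPM in 90d +P leaves. RSH2C (chromosome 3, 354930029 to 354932312), of the enzymes that make the alarmone ppGpp in plastids, had 0.365, 1.16 and 15.8 CPM in 90d -P leaves, against 0.121, 0 and 0 CPM in 90d +P leaves. This RSH2C gene was nominally higher, but not without 90d -P C.

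Nucleotide synthesis genes as a list (46 tested, median 0.09) had 3 nominally higher members (6.52%, against 1.61% of all genes), all of them assembled RSH2C genes. Another (chromosome 3, 355125631 to 355128707) had 3.46, 9.31 and 0.123 CPM in 90d -P leaves, against 0, 0 and 0 CPM in 90d +P leaves. The third, on unplaced Contig03213, 124184 to 129409, had 16.7, 34.02 and 0.0617 CPM in 90d -P leaves, against 0, 0 and 0 CPM in 90d +P leaves. Both were almost absent from 90d -P C, where the RSH2C gene beside PXC1 was highest. The sum over such copies was not tested.

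An assembled phospholipase D gene (PLDA1, chromosome 1, 218506142 to 218507750) had 0, 0 and 0 CPM in 90d -P leaves, against 3.09, 6.02 and 2.11 CPM in 90d +P leaves, at least 20.4-fold lower. The reference gene PLDA1 Ebr05G012730, of higher CPM, had 949, 793 and 804 CPM in 90d -P leaves, against 778, 812 and 722 CPM in 90d +P leaves and did not separate the groups.

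Genes that the study itself listed for its 90 d terms were chosen on these samples, so that their direction is not independent evidence. All 7 genes listed for starch and sucrose metabolism were positive and nominally higher, as were the 2 for polygalacturonase activity and the 3 for purine metabolism. The 2 genes for iron-sulfur clusters (NIFU4 and PTC52), the 2 for steroids (the CP511 copies) and the 3 for transport from the endoplasmic reticulum and protein processing there were nominally lower. Of 8 tested genes for hormone signalling, 8 were negative and 5 nominally lower. The 13 genes for carbohydrate biosynthesis are cellulose synthase-like and trehalose phosphate synthase genes, of which 3 were positive and 10 negative, with 7 nominally lower.

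The study's miRNA targets at 90 d were 2KGR, MIK2 and Ebr03G015380. 2KGR (Ebr06G023990, chromosome 6, 188102073 to 188117760) had 9.66, 20.51 and 22.51 CPM in 90d -P leaves, against 9.88, 6.66 and 7.67 CPM in 90d +P leaves, with 90d -P A inside the 90d +P range. Its log2 fold change was 1.12 (SE 0.44), not nominal without 90d -P B (1.001), 90d -P C (0.91), 90d +P B (0.999) or 90d +P C (1.09). MIK2 (Ebr05G042010, chromosome 5, 316243951 to 316250215), a receptor kinase, had 1.09, 1.77 and 2.65 CPM in 90d -P leaves, against 0.485, 0.0537 and 0.216 CPM in 90d +P leaves, higher without overlap at low level. Its nominal call was lost without 90d -P B (2.88), 90d -P C (2.48), 90d +P B (2.37) or 90d +P C (2.75). The miRNA libraries were not analysed here.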

How the data were processed

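Leaf RNA-seq libraries of 4 groups with 3 replicates each were used, and the 2 groups at 90 d were compared. Per the labels, the authors used HISAT2 2.0.5, StringTie 1.3.3b and featureCounts 1.5.0-p3. The authors deposited raw read counts per gene and FPKM values, which divide counts by gene length and library size. The genome build, the strand setting and the handling of multiply mapped reads are not given in the sources used here. In both tables an emptied line was left out. Assembled genes are named here by protein name and coordinates.

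Counts were scaled by TMM, filtered by filterByExpr and fitted with edgeR 4.0.16 (R 4.3.3) by quasi-likelihood over all 4 groups, so that the spread was shared. The contrast was 90d -P minus 90d +P with Benjamini-Hochberg adjustment, and SE is the log2 fold change over the root of F. FPKM served only to compare levels between genes and as an alternative for overlap. DESeq2 1.42.0 and limma 3.58.1 were alternatives, as were other scalings, filters, a replicate block and each library left out. The steps were tested on simulated data. Floors of 3 counts per library cover counting error only.

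Gene lists were made by words in the protein names or by family. Named genes were the 12 highest and 12 lowest without overlap at a mean of at least 5 CPM, up to 3 of smallest p and the most expressed of each list, the study's own 90 d genes and the 5 higher and 5 lower assembled genes of smallest p. Ebr02G040500 and GDPD1 were added after their values were seen. Members and lists were chosen with earlier results of these data known.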

Additional observations from a re-analysis of the deposited data

How the results depend on the processing

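The adjusted edgeR calls, 0 higher and 0 lower, were the same under RLE scaling, both other filters, the 6 libraries alone, no fold change minimum and limma-voom. The likelihood ratio test called 34 higher and 106 lower, DESeq2 called 47 and 126 on 6 libraries and 59 and 186 on 12, and with single libraries left out edgeR called 0 higher and 0 to 2 lower, the 2 without 30d -P A or 30d -P C. Nominally higher and lower genes numbered 620 and 1124 without a filter and 225 and 317 in the 6 libraries alone, and the likelihood ratio test gave 608 higher. Single libraries moved the nominal counts between 327 (without 90d +P B) and 654 (without 90d +P C) higher and between 650 and 841 lower. DESeq2 calls lay between 67 and 189 higher and between 163 and 317 lower with 1 library of the 6 left out, an alternative chosen after seeing the data. The causes were not tested.

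Of 108 genes described, 1 changed sign under another scaling, filter, model or block, and 12 values fell short of the nominal threshold there while 3 passed it. With single libraries left out, 79 values fell short of the nominal threshold and 20 passed it. Among the list medians of those fits, 107 moved by more than the spread between replicates and 439 did not. Leaving out single libraries also turned 8 genes that had no nominal call. Their log2 fold changes then ran from -0.42 to 0.50 for CHS2 (Ebr01G026640), from -1.41 to 1.18 for TCMO (Ebr01G074580), from -0.17 to 1.22 for N8DT1 (Ebr02G069700), from -1.60 to 1.18 for PER42 (Ebr03G026260), from -2.35 to 1.72 for PPA27 (Ebr03G063200), from -0.15 to 0.37 for SSG1 (Ebr04G020710), from -1.30 to 0.0046 for CP511 (Ebr05G002420) and from -0.38 to 0.59 for CESA3 (Ebr06G014390). In the 6 libraries alone, 1 gene list had no member left to give a median.

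Replicate letters did not pair the libraries: deviations from the group means correlated at -0.009, 0.087 and -0.033 between libraries of the same letter. With a replicate block, edgeR called 0 genes in both directions after adjustment and gave 290 nominally higher and 504 lower genes, the interaction again gave 0, and the log2 fold change of PPA27 was 0.14.

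With 3 libraries a group and a wide spread between them, small changes and genes with few reads could not be resolved, and a gene short of the threshold is not shown to be unchanged. Assembled genes and close copies carry the added doubt of how shared reads were counted. The nutrient solutions differed in more than phosphate.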
